A study of Mus musculus with 6 samples.

Results

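Cytosolic ribosomal protein genes encode the proteins of the ribosome outside mitochondria. The members were all probes of the non-normalized intensity table whose target name is RPS, RPL or RPLP followed by a number and at most 1 of the letters A, X or L, with RPL10L left out. The rule took 97 of the 45281 probes and 65 of the 30854 targets. Of these, 40 probes of 28 genes belonged to the small subunit and 57 probes of 37 genes to the large subunit. Rpl5, Rpl10, Rpl11 and Rps27 were not analysed here.

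Expression was measured with 6 Illumina bead arrays. The cells were cancer-associated fibroblasts, which form the stroma of a carcinoma, grown briefly as an explant from a pancreatic tumour of a KPC-Brca1 mouse. The 3 DAC plates received 2 micromolar decitabine (5-aza-dC, DAC), a cytidine analogue that traps DNA methyltransferases on DNA, for 48 hours. The 3 untreated plates received no drug, and cells of both groups came from the same tumour. KPC mice carry cancer alleles activated by Cre in the pancreatic epithelium, so a fibroblast need not have recombined them. Those alleles, the Brca1 allele, the strain, the sex and the age of this mouse, and the number of passages, were not stated in the labels. The plates were replicates of a single explant culture, and each p-value therefore reflects the spread among plates alone, which may be technical.

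Every cytosolic ribosome joins a small subunit, which reads the mRNA, to a large subunit, which forms the peptide bonds, and each subunit is built on ribosomal RNA with a set of proteins made in matched amounts. The genes are active in every cell and give some of the most abundant mRNAs of a fibroblast. These mRNAs begin with a C and a run of pyrimidines, the TOP tract, through which mTORC1 and Larp1 control their translation, and most of the genes start in CpG-rich promoters without a TATA box. Mammalian genomes also hold many processed pseudogenes of these genes, whose copies of the mRNA sequence a probe can share.

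The start sites of 6 members are shown for their pyrimidine tracts, a known feature of ribosomal protein mRNAs. Promoter windows from RefSeq (GRCm38.p6), reaching from 250 bases before to 50 bases after the annotated start, matched 50 of the 65 genes. A tract was a C followed by at least 5 further C or T letters on the sense strand, beginning within 10 letters of the annotated start, and it was present in 28 of the 50 member windows (56.0%), against 19.2% of 27025 windows of all genes. The windows below run from 10 bases before to 20 bases after the start, with the tract in capitals. Rps6 lies at chr4:86857348-86857377 (minus strand), Rps15a at chr7:118116128-118116157 (minus strand) and Rps18 at chr17:33955646-33955675 (minus strand). Rpl18 lies at chr7:45718061-45718090 (plus strand), Rpl28 at chr7:4792955-4792984 (plus strand) and Rpl38 at chr11:114668570-114668599 (plus strand). The tracts are 8 to 11 letters long.
Rps6: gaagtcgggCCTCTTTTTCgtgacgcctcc
Rps15a: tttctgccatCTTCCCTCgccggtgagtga
Rps18: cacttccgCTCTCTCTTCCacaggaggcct
Rpl18: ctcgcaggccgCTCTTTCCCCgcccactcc
Rpl28: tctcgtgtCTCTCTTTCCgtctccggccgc
Rpl38: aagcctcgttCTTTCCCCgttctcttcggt

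The promoters of the 4 genes whose representing probe changed with the drug are shown for their CpG content. DNA methylation in mammals falls on CG, and DAC acts on DNA methyltransferases. The number of CG in the 300-base window had a median of 21 over the members (range 2 to 35) and of 7 over all genes (range 0 to 65). At least 10 CG were present in 48 of 50 member windows (96.0%), against 43.9% of all windows. The window held 27 CG in Rps3a1 and 10 in Rpl24, whose probes rose, and 15 in Rpl22 and 17 in Rps15a, whose probes fell. A relation between CG number and change was not tested. Rpl3l, a muscle paralog of Rpl3 that was not detected, held 2. Printed are 100 bases before to 20 bases after the start, with each CG in capitals. Rps3a1 lies at chr3:86142649-86142768 (minus strand), Rpl24 at chr16:55966175-55966294 (plus strand) and Rpl22 at chr4:152325626-152325745 (plus strand). Rps15a lies at chr7:118116128-118116247 (minus strand) and Rpl3l at chr17:24727726-24727845 (plus strand).
Rps3a1: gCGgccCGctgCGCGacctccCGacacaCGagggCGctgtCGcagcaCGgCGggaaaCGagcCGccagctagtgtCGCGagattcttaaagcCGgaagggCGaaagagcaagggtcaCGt
Rpl24: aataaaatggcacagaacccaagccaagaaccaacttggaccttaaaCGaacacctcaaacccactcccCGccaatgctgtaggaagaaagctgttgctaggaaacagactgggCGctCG
Rpl22: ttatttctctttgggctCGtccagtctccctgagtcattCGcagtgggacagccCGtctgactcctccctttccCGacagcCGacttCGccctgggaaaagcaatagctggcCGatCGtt
Rps15a: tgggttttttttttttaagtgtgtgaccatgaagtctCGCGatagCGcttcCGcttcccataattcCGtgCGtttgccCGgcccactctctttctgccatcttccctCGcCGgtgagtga
Rpl3l: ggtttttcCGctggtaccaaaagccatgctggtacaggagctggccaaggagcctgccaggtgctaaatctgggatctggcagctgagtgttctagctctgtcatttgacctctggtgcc

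Other short motifs also differed in share between members and all genes. CGGAAG, the core letters of ETS family sites, was found on either strand in 35 of the 50 member windows (70.0%), against 17.2% of all windows. CTCTTTCC, which overlaps the tract by its letters, was found in 7 member windows (14.0%), against 3.04%. TATAAA was found in 4 (8.0%), against 14.2%. These shares describe letters in the windows. Methylation was not measured in the files used here.

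Of the 97 member probes, 79 were kept, 35 of the small and 44 of the large subunit, because they were detected (detection p under 0.01) on at least 3 arrays. They stood for 58 genes, 26 of the small and 32 of the large subunit, each represented by its brightest kept probe. Of the kept probes, 78 were detected on all 6 arrays. The other 18 probes were detected on none, 11 of them belonging to genes with another, kept probe. The remaining 7 were the only probes of their genes. These were the large subunit genes Rpl6, Rpl14, Rpl17, Rpl3l and Rpl39l and the small subunit genes Rps20 and Rps23. Rpl6, Rpl14, Rpl17, Rps20 and Rps23 encode constituents that ribosomes of all cells hold, so a probe without signal gives no measure of those genes here. Rpl3l is known from heart and skeletal muscle and Rpl39l from testis. The lowest detection p of Rpl3l was 0.0192 and that of Rpl39l 0.349, so neither passed on any array of either group.

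Across the whole array the drug changed 4674 of 16883 kept probes (limma, Benjamini-Hochberg adjusted p under 0.05), which is 27.7%, with 13.1% higher and 14.5% lower with DAC. Among the ribosomal protein probes, 7 of 79 were called (8.86%), 3 higher and 4 lower. By gene, 4 of 58 were called (6.9%), 2 higher and 2 lower, against 28% of all targets. At an unadjusted p under 0.05 there were 9 of 79 member probes, against 39.3% of all kept probes. The DAC and untreated arrays did not overlap for 11 of 79 member probes (13.9%), against 41.8% of all kept probes. Array levels come from bulk RNA, in which a change in the number of cells of a type and a change in RNA per cell cannot be told apart.

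The measured changes were small in size as well as few. The median log2 change, DAC minus untreated, was 0.03 over the 58 genes, beside −0.01 over all kept probes. The SD of the log2 changes was 0.15 over the 58 genes and 0.40 over all kept probes. For 34 of the 58 genes (58.6%) the whole 95% interval of the change lay within 1.25-fold in either direction, which held for 23.1% of all kept probes. For the other genes the interval was wider than that or centred away from 0, so a change of that size is not bounded by these arrays. All intervals are of measured intensities. Whether bright probes were near saturation, where a change in RNA would be understated, was not tested. The median distance from a gene's change to the edge of its interval was 0.22 on the log2 scale. By probe, the share of intervals within 1.25-fold rose with brightness in members and other probes alike. At a mean raw intensity of at least 10000 it was 80% of 30 member probes, against 72.1% of 111 others. Between 1000 and 10000 it was 45.5% of members, against 30.4% of others. Below 1000 it was 18.8% of members, against 21.2% of others.

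**Figure D1:**
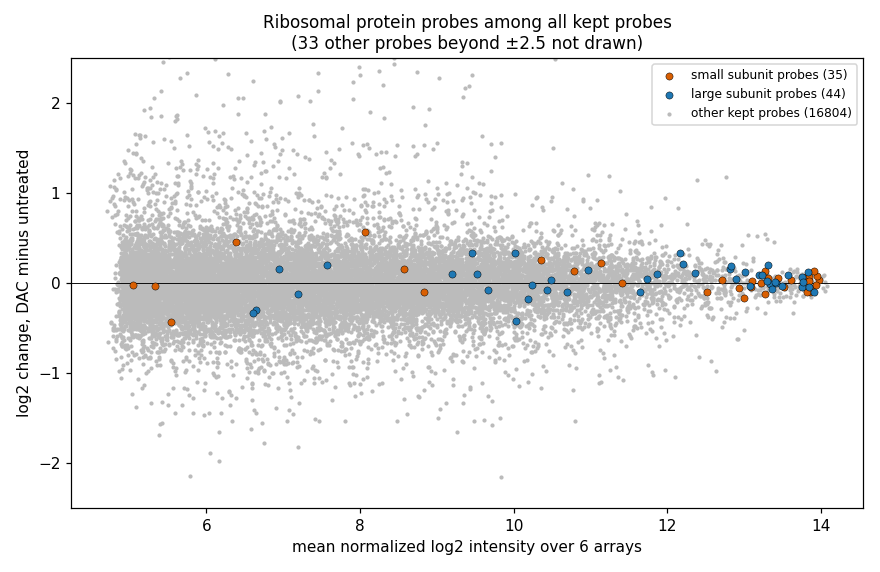
Log2 change (DAC minus untreated, y axis) against mean normalized log2 intensity over 6 arrays (x axis) for the 35 small subunit probes, the 44 large subunit probes and all other kept probes, each point a probe. Most ribosomal protein probes sit at the bright end and close to 0, with an SD of the changes of 0.16, against 0.40 for all kept probes. At a mean raw intensity of at least 10000 the SD was 0.08 for member probes and 0.13 for other probes. Below 1000 it was 0.28 and 0.41.

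Because the ribosomal protein probes were bright, and bright probes of any gene were called less often, the comparison was repeated by brightness. Among the brightest 10% of kept probes, 1 of 56 member probes was called (1.79%), against 18.5% of all probes in that class. Brightness still differed within the class of 1689 probes, where 30 of the 56 members read at least 10000, against 111 other probes. At a mean raw intensity of at least 10000, 0 of 30 member probes were called, against 3.6% (4 of 111) of the other probes there, and 0 of the 30 had an unadjusted p under 0.05. Between 1000 and 10000, 2 of 33 member probes were called (6.06%), against 21.9% of the others. That class is wide, and brightness was not matched within it. Below 1000, 5 of 16 were called (31.2%), against 29%, a share near that of the other probes. Without the member probes at or above 50% of an array's highest intensity, 7 of 37 were called (18.9%), against 27.8% of all probes left. The gap to all probes was thus narrower without the brightest members.

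**Figure D2:**
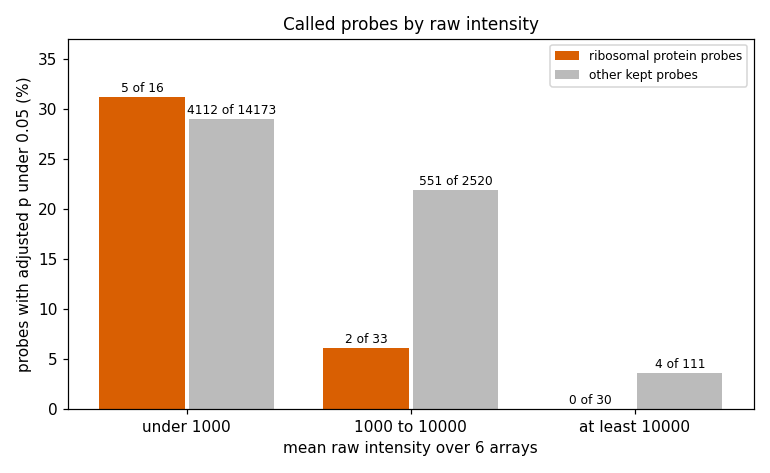
Share of probes with an adjusted p under 0.05 (y axis, percent) by mean raw intensity over 6 arrays (x axis), for ribosomal protein probes and for other kept probes, with counts above the bars. Ribosomal protein probes stand at 31.2% in the dimmest class (others 29%), 6.06% in the middle class (others 21.9%) and 0% in the brightest class (others 3.6%).

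Many member probes stood near the top of the arrays' range. Of the 100 brightest probes of an array, 21, 23 and 18 were ribosomal protein probes on the DAC arrays and 18, 22 and 21 on the untreated arrays. The highest raw intensity on an array was 17744 to 19114 with DAC and 17599 to 19108 untreated. Member probes at or above 50% of it numbered 29 to 42 on the DAC arrays and 30 to 38 on the untreated arrays. Those at or above 90% numbered 1 to 3 and 0 to 4. Over all arrays, 42 kept probes of 37 genes reached 50% and 9 reached 90%. Among the 9 were probes of Rpl9, Rplp1, Rps29, Rps4x and Rps9 and both probes of Rps12. The table carries no saturation flag. The bead CV was 26.4% for member probes of at least 10000, against 24.9% for members between 1000 and 10000. The class of at least 10000 begins well below the highest intensities. Its median cannot show the spread of the 9 probes at 90%, so saturation was not tested.

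Among the 5 brightest member probes were the pair of Rps12, a protein of the small subunit, and those of Rps29 and Rpl9. The first Rps12 probe read 17379.8, 16707.4 and 15523.0 on the DAC arrays, against 16212.2, 14455.1 and 16793.9 on the untreated arrays. Rps29, a zinc-binding protein of the small subunit, read 15956.5, 14873.8 and 15771.7 with DAC, against 15780.0, 15245.4 and 16195.6 untreated. In both genes the groups overlapped, with log2 changes of 0.03 for Rps12 and −0.03 for Rps29. Rpl9, a protein of the large subunit, read 14173.3, 14946.5 and 15205.1 with DAC, against 15358.4, 16762.5 and 16025.0 untreated. All 3 raw values of Rpl9 were lower with DAC, but after quantile normalization the groups overlapped, and its log2 change of −0.10 did not pass the test (adjusted p = 0.480).

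The medians of both subunits lay close to 0. The median log2 change was 0.01 over 26 small subunit genes and 0.04 over 32 large subunit genes, a difference of −0.03. In each subunit 1 gene was higher and 1 lower. The 95% interval lay within 1.25-fold for 18 of 26 small subunit genes and 16 of 32 large subunit genes.

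Averaged over genes, the small subunit stood above the large one by 0.11, 0.11 and 0.09 on the log2 scale on the DAC arrays, against 0.13, 0.14 and 0.14 on the untreated arrays. This offset is between different probes and has no meaning by itself, so only its change is read. The groups did not overlap on it, and neither did they for 41.8% of all kept probes taken singly. The offset averaged 0.11 ± 0.01 with DAC and 0.14 ± 0.01 untreated (SD, n = 3 each). The difference of −0.03 is given without a test. The mean level of all 58 genes was 12.36, 12.44 and 12.35 on the DAC arrays, against 12.32, 12.39 and 12.34 on the untreated arrays. Plate 2 was the highest of its group in each case, and the means of 12.38 ± 0.05 with DAC and 12.35 ± 0.04 untreated differed by less than the spread between plates.

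**Figure D3:**
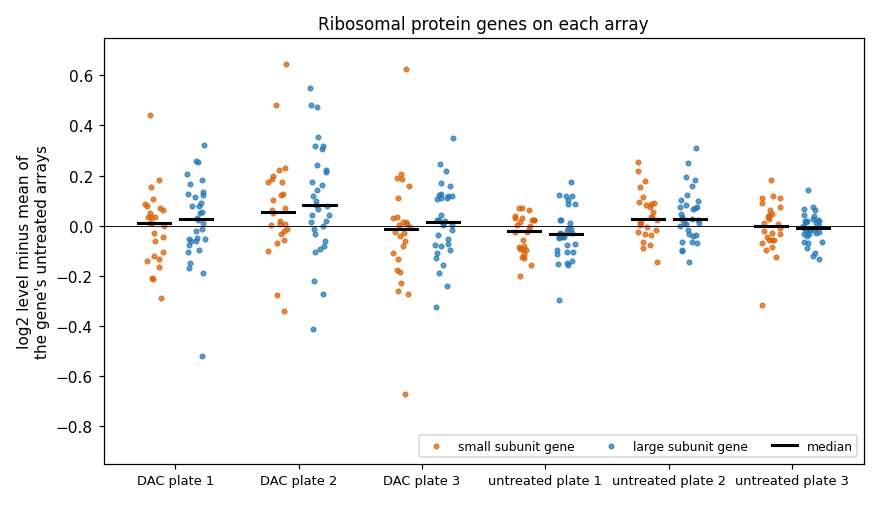
Log2 level of each of the 58 genes on each array minus the mean of that gene's 3 untreated arrays (y axis), with small and large subunit genes side by side and a black bar at each median. The untreated points scatter less in part because they are set against their own mean, and plate 2 sits slightly above the other plates in each group.

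Rps3a1, the small subunit protein of the Rps3a family near the mRNA exit channel, rose the most. Its probe read 281.5, 368.7 and 350.1 on the DAC arrays, against 268.3, 292.5 and 208.9 on the untreated arrays. The raw values overlapped, because the untreated plate 2 lay above DAC plate 1, while the normalized log2 values did not. They averaged 8.34 ± 0.11 with DAC and 7.77 ± 0.29 untreated (SD, n = 3 each), a log2 change of 0.57 (95% interval 0.28 to 0.86, 1.49-fold, limma adjusted p = 0.00627). With dim probes kept the adjusted p was 0.0731. The Rps3a1 probe was far dimmer than most member probes and may report its gene poorly.

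Rpl24, a large subunit protein that forms a bridge to the small subunit, also rose. Its probe read 4760.4, 6315.0 and 4656.4 on the DAC arrays, against 4152.3, 4163.7 and 3903.0 on the untreated arrays. All DAC arrays were above all untreated arrays, and DAC plate 2 was well above the other DAC plates. The log2 change was 0.33 (95% interval 0.09 to 0.58, 1.26-fold, limma adjusted p = 0.0447). The call ended without DAC plate 1, DAC plate 2 or any of the untreated plates (adjusted p between 0.0764 and 0.151) and with dim probes kept (adjusted p = 0.125).

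Rpl22, a large subunit protein at the ribosome's surface that mouse T cell development requires, fell. Its probe read 773.0, 954.2 and 982.8 on the DAC arrays, against 1257.3, 1309.8 and 1235.1 on the untreated arrays. Every DAC array was below every untreated array. The log2 level averaged 9.82 ± 0.10 with DAC and 10.24 ± 0.05 untreated (SD, n = 3 each), a change of −0.42 (95% interval −0.63 to −0.20, 1.34-fold, limma adjusted p = 0.00679). The call held under all 19 alternative settings, with log2 changes between −0.53 and −0.37. Leaving out bright member probes could not alter this call, and several settings leave the log2 change the same by construction.

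Rps15a, a core protein of the small subunit, fell at a far dimmer probe. It read 60.8, 63.3 and 54.4 on the DAC arrays, against 80.8, 76.2 and 80.0 on the untreated arrays. The groups did not overlap, and DAC plate 3 was the lowest. The log2 change was −0.43 (95% interval −0.68 to −0.19, 1.35-fold, limma adjusted p = 0.0120), and the call ended without DAC plate 3 (adjusted p = 0.0644) and with dim probes kept (adjusted p = 0.0549). The annotation names 8 pseudogenes of Rps15a. Whether this probe reads one of them was not tested. A probe this dim may report its gene poorly.

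**Figure D4:**
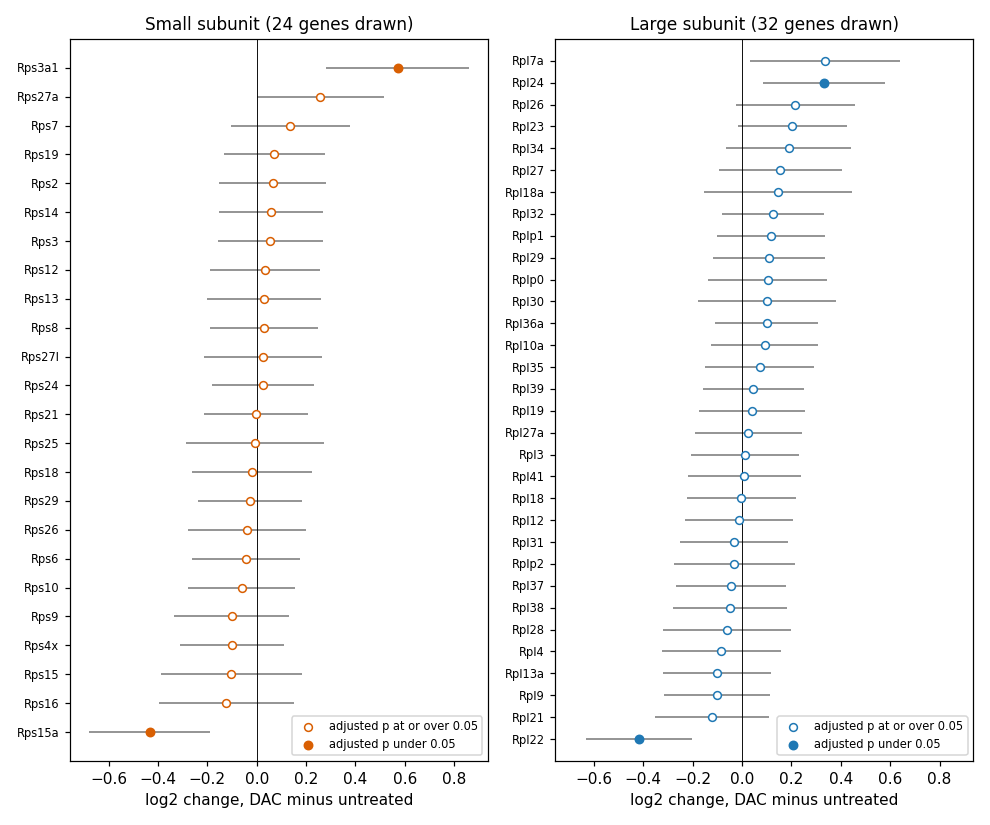
Log2 change (x axis, DAC minus untreated) with its 95% interval, sorted by size, for 24 of the 26 represented small subunit genes and the 32 large subunit genes, with 2 small subunit genes not shown. Filled points passed an adjusted p of 0.05, which were Rps3a1 and Rps15a in the small subunit and Rpl24 and Rpl22 in the large one.

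The other 3 called probes were dim probes of genes whose brightest probe did not pass. Rpl21, a large subunit protein, had 3 kept probes. The second read 97.3, 114.8 and 106.6 with DAC, against 134.6, 139.9 and 147.8 untreated. The third read 96.6, 105.1 and 106.6 with DAC, against 138.9, 127.8 and 149.7 untreated. On each of these probes the DAC arrays were all below the untreated ones, with log2 changes of −0.30 (adjusted p = 0.0437) and −0.33 (adjusted p = 0.0265). The first and brightest read 145.7, 145.9 and 167.9 with DAC, against 196.9, 176.2 and 176.6 untreated. Its raw values did not overlap, but its normalized values did, and its change of −0.12 was not called (adjusted p = 0.427). The mean of the 3 probes was called (−0.25, adjusted p = 0.0474). The second probe lost its call when DAC plate 1, DAC plate 3, untreated plate 2 or untreated plate 3 was left out (adjusted p between 0.113 and 0.132), without background correction (adjusted p = 0.0509) and under a robust variance model that follows intensity (adjusted p = 0.0542). The third lost it when any DAC plate or untreated plate 3 was left out (adjusted p between 0.0540 and 0.101). The annotation names 15 pseudogenes of Rpl21, and whether its probes share sequence with them was not tested.

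Rps19, a small subunit protein whose human mutations cause Diamond-Blackfan anaemia, had a bright and a dim kept probe. The dim one read 117.5, 129.5 and 94.7 with DAC, against 112.5, 86.3 and 96.9 untreated. DAC plate 3 lay among the untreated plates, so the groups overlapped although the probe was called (log2 change 0.45, 1.37-fold, adjusted p = 0.0339). The bright one read 14734.3, 14647.0 and 15147.6 with DAC, against 14829.8, 13743.3 and 13994.5 untreated. Its groups overlapped and its log2 change of 0.07 was not called (adjusted p = 0.619). The dim probe lost its call without between-array normalization (adjusted p = 0.162), with scaling to the 75th percentile (adjusted p = 0.0815) and with dim probes kept (adjusted p = 0.206). It also lost it when DAC plate 1, DAC plate 2, untreated plate 2 or untreated plate 3 was left out (adjusted p between 0.0861 and 0.130).

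**Figure D5:**
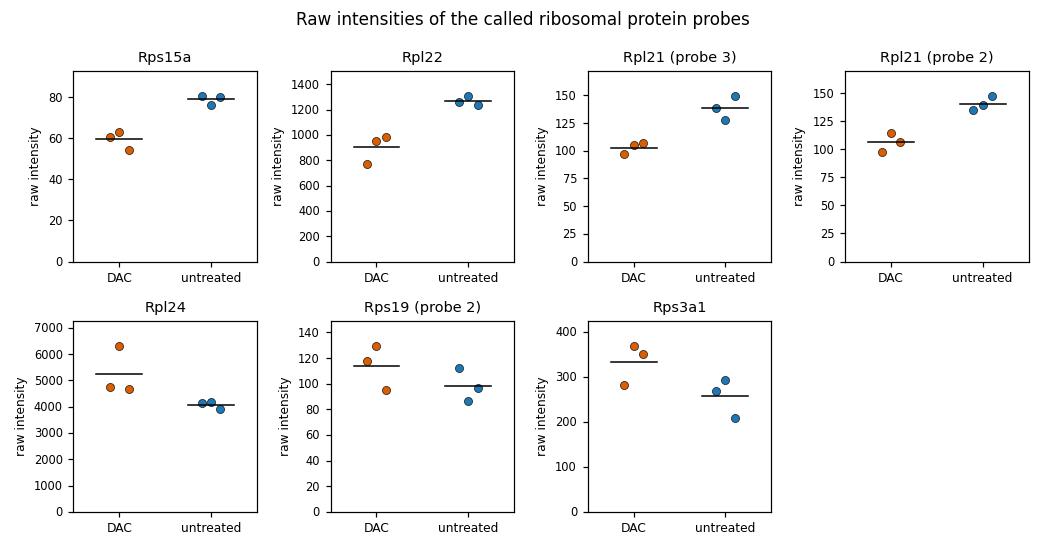
Raw intensity (y axis from 0, linear) of the 7 called ribosomal protein probes on the 3 DAC and the 3 untreated arrays, each point an array and each line a mean. The groups lie apart for Rpl22, Rps15a, Rpl24 and the probes 2 and 3 of Rpl21, and they overlap for Rps3a1 and for probe 2 of Rps19.

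Several probes were available for 23 of the targets. No member gene had probes called in opposite directions. Rpl38, which mouse embryos need for translation of Hox mRNAs, showed the widest contrast between kept probes without a call. Its bright probe had a log2 change of −0.05 and its dim probe of 0.34 (adjusted p = 0.136). The dim probe read 698.4, 1094.3 and 619.7 with DAC, against 650.2, 726.8 and 633.0 untreated, so DAC plate 2 stood high and DAC plate 3 lay below all untreated plates. The annotation names 248 pseudogenes for 50 of the 65 genes, by names of the form gene-ps. Rpl31 and Rps12 had the most, 23 each, followed by Rpl21 with 15, Rpl7a with 14 and Rps19 with 13. No pseudogene of that naming form was listed for Rpl24 or Rps3a1, and 1 was listed for Rpl22. Pseudogenes under other names were not counted, so these counts do not show that a probe reads its gene alone.

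The stalk proteins recruit the elongation factors to the ribosome. Rplp0, the base of the stalk, read 571.0, 574.2 and 688.0 with DAC, against 630.3, 647.1 and 560.8 untreated. Rplp1 read 15228.8, 14256.9 and 16028.9 with DAC, against 14183.4, 13483.2 and 14778.7 untreated. Rplp2 read 9783.0, 13718.5 and 11279.6 with DAC, against 10421.9, 12550.3 and 11544.5 untreated. The groups overlapped in each of the 3 genes. Their log2 changes were 0.10 for Rplp0, 0.12 for Rplp1 and −0.03 for Rplp2, with adjusted p-values of 0.531, 0.426 and 0.868.

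Rpl23, Rps7 and Rps27l bind Mdm2, the ubiquitin ligase of p53, when ribosome assembly is disturbed. Rpl23 read 10856.5, 12057.6 and 10471.8 with DAC, against 9984.5, 8903.8 and 8832.0 untreated. The raw values of this brightest Rpl23 probe were all higher with DAC, but the normalized ones overlapped. Its log2 change was 0.20 (95% interval −0.02 to 0.42, limma adjusted p = 0.159). The second Rpl23 probe changed by 0.09 (adjusted p = 0.545) and the third by −0.08 (adjusted p = 0.598). Rps7 read 8953.5, 11763.5 and 11072.5 with DAC, against 8698.1, 10783.9 and 8407.0 untreated, a log2 change of 0.14 (adjusted p = 0.399). Rps27l, a paralog of Rps27 that p53 induces, read 7332.1, 11141.0 and 9030.8 with DAC, against 8516.1, 9006.7 and 8076.9 untreated. Its DAC plates lay on either side of the untreated ones, and its log2 change was 0.03 (adjusted p = 0.889). Rpl26, another p53-linked member of the large subunit, had a log2 change of 0.21 (adjusted p = 0.172). With arrays scaled to the 75th percentile, the brightest Rpl23 probe and Rpl26 passed the threshold as higher with DAC.

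Rps6, the substrate of the S6 kinases, read 8094.9, 9401.8 and 8738.4 with DAC, against 7995.1, 8976.1 and 9040.8 untreated. Its groups overlapped and its log2 change was −0.04 (95% interval −0.26 to 0.18, adjusted p = 0.800). Rps27a, made as a fusion with ubiquitin, read 1183.9, 1765.1 and 1393.2 with DAC, against 1210.0, 1402.8 and 1180.6 untreated. Its groups also overlapped, with a log2 change of 0.26 (adjusted p = 0.127). Rpl7a, a large subunit protein, had the largest log2 change among represented genes that were not called, 0.34 (95% interval 0.03 to 0.64, adjusted p = 0.0926).

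Rpl3, which helps shape the peptidyl transferase centre, read 10594.2, 11205.0 and 11769.2 with DAC, against 11582.3, 10473.7 and 10286.6 untreated. Rpl39, which lines the exit tunnel, read 7229.8, 8426.1 and 7874.2 with DAC, against 7338.3, 7776.2 and 7392.7 untreated. Neither was called, with log2 changes of 0.01 (adjusted p = 0.937) and 0.05 (adjusted p = 0.763). The groups of Rpl3 overlapped, and those of Rpl39 overlapped in raw but not in normalized values. Both genes were detected on all 6 arrays, while the probes of their tissue-restricted paralogs Rpl3l and Rpl39l were detected on none.

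The X-linked members with a kept probe were Rps4x, Rpl36a and Rpl39. Rps4x, of the small subunit, read 13359.5, 14913.3 and 14241.2 with DAC, against 15599.4, 16047.8 and 14794.2 untreated, and DAC plate 2 lay above untreated plate 3. Its log2 change was −0.10 (adjusted p = 0.485). Rpl36a, of the large subunit, read 3540.7, 4130.9 and 4032.4 with DAC, against 3865.6, 3529.1 and 3499.5 untreated. Its raw values overlapped, its normalized values did not, and its log2 change was 0.10 (adjusted p = 0.480).

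Proteins of the cytosolic ribosome or close to it that the naming rule leaves out were few and none was called. Of 8 such targets, 7 were tested and 0 were called by limma, beside the 27.7% of all kept probes. The median log2 change was 0.15, but 0.054 without DAC plate 2, 0.078 without untreated plate 1, 0.080 without background correction or with an offset of 50, 0.031 without between-array normalization and 0.0026 with scaling to the ribosomal protein genes. They included Rpsa, also known as the laminin receptor, at 0.15, and Gnb2l1, the Rack1 scaffold, at 0.16. Both were read by dim probes, which may report their genes poorly. The Rpsa probe was detected on 3 arrays only, with log2 means of 5.06 with DAC and 4.92 untreated. The means of the Gnb2l1 probe were 5.71 with DAC and 5.55 untreated. Of these 7, 1 had an unadjusted p under 0.05, Rpl7l1, with a log2 change of 0.27 (adjusted p = 0.104).

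The mitochondrial ribosomal proteins, which form a separate ribosome for the mitochondrial genome, had 8 of 67 tested genes higher and 0 lower (11.9% called, against 28% of all targets), with a median log2 change of 0.10. Among the 8 were Mrpl2, higher by 0.50 on the log2 scale (adjusted p = 0.00299), Mrpl52, by 0.46 (adjusted p = 0.00417), and Mrpl1, by 0.48 (adjusted p = 0.00682). The count depended on settings and plates. It was 13 higher without background correction, with an offset of 50 or with 75th percentile scaling, but 4 without untreated plate 1 and 5 without untreated plate 3. Without between-array normalization the counts were 4 higher and 1 lower, with a median of 0.01. Scaled to the mean of the cytosolic ribosomal protein genes, they were 2 higher and 1 lower, with a median of −0.02, and Mrpl1 was no longer called (adjusted p = 0.0691).

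Ribosome biogenesis and RNA polymerase I genes, which make and assemble the subunits, had 9 of 83 tested genes higher and 0 lower (10.8% called, against 28% of all targets), with a median of 0.12. Among them were Tsr1, a maturation factor of the small subunit, at 0.64 (adjusted p = 0.000497), Nop14, a factor of small subunit processing, at 0.66 (adjusted p = 0.000611), and Ddx31, a helicase of the nucleolus, at 0.52 (adjusted p = 0.00236). The counts were 14 higher and 1 lower without background correction or with an offset of 50. The direction depended on scaling, with 4 higher and 3 lower without between-array normalization, and 2 higher and 4 lower when scaled to the ribosomal protein genes, where Ddx31 lost its call (adjusted p = 0.0555).

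Translation factors moved both ways. Of 33 tested initiation genes, 4 were higher and 3 lower (21.2% called, against 28% of all targets), with a median log2 change of −0.07. Leaving out 1 plate gave 2 to 4 higher and 0 to 3 lower. Higher genes numbered 2 without DAC plate 1, DAC plate 3 or untreated plate 3. Lower genes numbered 0 without untreated plate 1 and 1 without untreated plate 3 or any DAC plate. With 75th percentile scaling the median was 0.05. Eif3k, a subunit of the initiation factor that holds the small subunit, rose by 0.82 (1.76-fold, adjusted p = 0.000184), Eif2b3, of the exchange factor of eIF2, rose by 0.43 (adjusted p = 0.00737), and Eif4g1, the scaffold that joins the cap-binding protein to the ribosome, fell by 0.41 (adjusted p = 0.0178). Of 14 tested elongation and termination genes, Eef1e1, a scaffold of the tRNA synthetase complex, was higher by 0.36 (adjusted p = 0.0139) and Eef2 was lower. The call of Eif4g1 ended when DAC plate 1, DAC plate 3 or untreated plate 1 was left out, and when dim probes were kept, with adjusted p-values of 0.0578 to 0.0866. That of Eef1e1 ended without DAC plate 3, without between-array normalization and with scaling to the ribosomal protein genes, with adjusted p-values of 0.0525 to 0.131. Eef2, the translocase and itself the product of a TOP mRNA, averaged 10.90 ± 0.09 with DAC and 11.70 ± 0.22 untreated on the log2 scale (SD, n = 3 each). It fell 1.74-fold (adjusted p = 0.000197), and its log2 change stayed between −0.91 and −0.70 under all 17 alternatives run on it. Several of these leave the change the same by construction.

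The mTORC1 and Larp1 list, the pathway that controls translation of ribosomal protein mRNAs, had 3 of 29 tested genes higher and 4 lower (24.1% called, against 28% of all targets), with a median log2 change of −0.03. Lower genes numbered 2 without DAC plate 1 or untreated plate 2, higher genes numbered 6 with the replicate block, and the median was 0.01 without untreated plate 1. Eif4ebp2, a repressor of the cap-binding protein, fell 1.85-fold (adjusted p = 0.000126). Castor1, an arginine sensor, rose 1.60-fold (adjusted p = 0.000375), and Nprl3, of the GATOR complex, rose 1.43-fold (adjusted p = 0.00440). Mtor (−0.09), Larp1 (−0.03), Rps6kb1 (−0.02) and Myc (−0.13, adjusted p = 0.588), whose product promotes transcription of ribosomal protein genes, did not pass.

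Facts of the arrays stood beside these values. Detected probes numbered 16205 to 16528 with DAC and 16254 to 17180 untreated, and the 75th percentile of raw intensity was 102 ± 4.92 with DAC and 114 ± 3.00 untreated (SD, n = 3 each). The median raw intensity of the probes standing for the 58 genes was 8708, 11173 and 9342 with DAC, against 8996, 9357 and 8680 untreated. The members' median log2 change minus that of all kept probes was 0.04 after quantile normalization and 0.18 without between-array normalization. Scaling to the 75th percentile or to the ribosomal protein genes shifts all probes of an array equally. Both therefore give the same 0.18 by construction. Across kept probes, Pearson's r was 0.993 to 0.996 within a group and 0.974 to 0.980 between the DAC and the untreated arrays.

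Of 12 fibroblast markers 11 were tested, with a summed linear level of 52859 to 55644 on the DAC arrays and 55034 to 58652 on the untreated arrays. Lum, a matrix proteoglycan, fell and S100a4 rose. Of 11 leukocyte markers 6 were tested and 5 were higher, beside 13.1% of all kept probes. The summed level of the 6 was 533 to 555 with DAC, against 258 to 322 untreated. Of the 5, Cd53 and Csf1r were detected on 3 arrays only, with log2 means of 5.93 and 5.34 with DAC. Their untreated means were 4.64 and 4.62. Both could pass the filter through the brighter DAC arrays alone, so the count of 5 is no independent result. Ptprc, the defining leukocyte marker, was detected on no array. Of 7 epithelial markers 4 were tested, with a sum of 1261 to 1449 with DAC and 1365 to 1555 untreated, Krt7 higher and Krt19 lower, and Epcam and Cdh1 not detected. None of the 5 endothelial markers was detected. The part of these markers in the ribosomal protein values was not tested.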

How the data were processed

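Per the labels' protocols, RNA was isolated with Trizol, and an Ambion kit gave the biotinylated cRNA. The deposited table gave, per the file headers, a bead intensity, a detection p-value, the bead standard error and the number of beads for each probe and array, on a linear scale without normalization as judged from the values. The median number of beads was 43 to 44. The scanner software and the annotation build were not given in the sources used here. With limma 3.58.1 in R 4.3.3, normexp removed the background (its parameters came from the detection p-values), 16 was added, and the log2 intensities were quantile normalized. Kept were the 16883 probes detected (p under 0.01) on 3 or more arrays. The comparison used lmFit and eBayes of limma on all kept probes, two-sided, with Benjamini-Hochberg adjustment over all of them, and a probe was called where its adjusted p was under 0.05. A gene took its brightest kept probe. The code was tested on simulated data.

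The members and the gene lists were chosen with earlier results of these data known. Named were called members, members of fixed roles (stalk, Mdm2 binding, tissue-restricted paralogs, Rps6, Rps27a, X-linked), members whose probes disagree, the brightest probes, and up to 3 called genes of each list with the smallest p. Rpl7a, Rpl26, Rpl38 and Rpl7l1, and list genes given without a call, were named after their values were seen, as were the classes of raw intensity. Gene names, pseudogene names and promoters came from RefSeq (GRCm38.p6), with 64 of 65 members matched by symbol and Rps3a1 by synonym. Some genes that the rule names are not reported here, though all member counts and medians include them. Probe sequences were not used here, so sharing with pseudogenes could not be checked. Bead error and array number limit the precision.

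A further table of the authors' processed intensity values shared 0 probe identifiers with the first and served for counts of probes alone. Replicate numbers were checked for pairing. Deviations from the group means correlated at 0.31, 0.31 and −0.03 for arrays with the same number. The same number was the best match for DAC plates 1 and 2, but not for DAC plate 3. The check was thus mixed, and the main fit did not pair the plates.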

Additional observations from a re-analysis of the deposited data

How the results depend on the processing

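The members' median log2 change was above 0 in all 19 settings (0.01 to 0.15), but some settings could not test this. The robust variance model, the replicate block and a fit on 1 probe a gene left it at the main value of 0.026. Scaling to the ribosomal protein genes sets their mean change to 0, so its median of 0.020 says nothing of the sign. The median reached 0.15 with scaling to the 75th percentile (0.12 for the small and 0.15 for the large subunit). Without probes at 50% of the array's highest intensity it was 0.073 (0.10 for the large subunit). The small minus large difference stayed between −0.07 and −0.02. Higher and lower member probes numbered 0 and 3 without the filter on dim probes, where 0 and 1 genes were called, and 4 genes were higher with 75th percentile scaling. Leaving out 1 plate gave 1 to 4 higher and 1 to 4 lower probes, and 1 to 2 higher and 1 to 2 lower genes. Without DAC plate 1, 1 probe was higher and 2 lower. The same counts arose without untreated plate 3, 1 higher without DAC plate 2, and 1 lower without DAC plate 3. With the replicate block, for which the pairing check was mixed, 5 member probes were higher, adding Rpl38 and Rpl7a. The block called 33.3% of all kept probes, against 27.7% without it. DAC plate 3 correlated best with untreated plate 1 (0.16). Without DAC plate 3 the dim Rpl38 probe was called, and without untreated plate 2 Rpl7a was. Over all kept probes, 1266 were higher and 4224 lower without between-array normalization (median −0.13), and 1148 higher and 4728 lower (median −0.16) with arrays scaled to the mean of the ribosomal protein genes, an alternative chosen after seeing the data. The authors' processed table gave 1066 higher and 979 lower over all probes, against 1902 and 1992 for background-corrected intensities without the filter. The causes of these shifts were not tested. Of the 7 calls 5 lay on probes of a mean raw intensity under 1000, and 3 plates a group of a single culture limit every interval.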
